A study of Homo sapiens with 6 samples.

Results

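The genes described here encode the SR proteins, the SR-like factors around them, the kinases that phosphorylate them, the hnRNPs and a set of core spliceosome subunits. They were listed by name and function, with earlier results of these data known, 53 in all, and 52 of them were found by symbol among the 20308 genes of the tables (SRSF8 was not matched and was not analysed here). The 52 fall into 10 SR proteins, 12 SR-like factors, 6 SR protein kinases, 14 hnRNPs and 10 core spliceosome subunits. All 52 passed the filter on low values, a mean of at least 0.5 FPKM (read fragments divided by transcript length in kilobases and by the mapped total of the library) over the 6 libraries.

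The RNA came from LNCaP-AI, a derivative of the LNCaP prostate cancer line kept without androgen and used as a model of castration-resistant disease. Both groups share this line and the androgen deprivation. In the first group, shMETTL1, a stably expressed hairpin silenced METTL1, which encodes a methyltransferase that places m7G on RNA, and in the second, shscramble, the cells carried a scrambled hairpin. Each group has 3 libraries, a single METTL1 hairpin is listed, and the methods speak of biological replicates in general but do not say of these libraries that they are separate cultures, so the p-values measure the spread between these libraries only. The question put to these libraries was how silencing METTL1 changes gene expression in such cells.

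SR proteins bind exonic enhancers through RNA recognition motifs and recruit U1 and U2 particles through arginine- and serine-rich (RS) domains. hnRNPs coat nascent transcripts and often oppose them, so the balance of both families sets which exons are included. The SRPK and CLK kinases phosphorylate RS domains, which moves SR proteins into the nucleus and out of nuclear speckles. In prostate cancer these regulators have been studied for their part in alternative splicing.

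The hairpin and the promoters of the members that passed a test are shown first, as the sequences nearest to the comparison. The stem of the METTL1 hairpin (21 bases) was found whole in transcripts of METTL1 and of no other gene in the GENCODE transcripts. Over 767 transcripts of the 52 members the longest run shared with it was 10 bases, in PTBP2 and TRA2A.
METTL1 hairpin stem: ggaatgtagtccatctaaact

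By edgeR on the estimated counts, 5 members passed the threshold, LUC7L3, PNISR and CLK3 downward and CLK1 and PRPF19 upward. The 150 bases before the annotated start of each are given 5′ to 3′ on the strand of the gene, from RefSeq on GRCh38.p14. CLK1 and CLK3 have 2 starts in the table, and the first listed is shown. Capitals mark the GC box GGGCGG (bound by SP1), the ETS motif CCGGAAG and the CCAAT box, on either strand.
LUC7L3 chr17:50719453-50719602 (+ strand): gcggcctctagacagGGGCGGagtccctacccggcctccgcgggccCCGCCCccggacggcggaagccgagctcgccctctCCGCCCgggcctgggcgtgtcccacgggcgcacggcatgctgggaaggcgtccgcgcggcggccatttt
PNISR chr6:99425309-99425458 (- strand): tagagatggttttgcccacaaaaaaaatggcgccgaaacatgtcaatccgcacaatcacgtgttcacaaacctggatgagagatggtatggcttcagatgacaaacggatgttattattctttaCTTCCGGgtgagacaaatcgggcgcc
CLK3 chr15:74608222-74608371 (+ strand): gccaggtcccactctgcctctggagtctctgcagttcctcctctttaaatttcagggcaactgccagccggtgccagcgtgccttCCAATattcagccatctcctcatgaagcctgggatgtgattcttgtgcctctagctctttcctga
CLK1 chr2:200864659-200864808 (- strand): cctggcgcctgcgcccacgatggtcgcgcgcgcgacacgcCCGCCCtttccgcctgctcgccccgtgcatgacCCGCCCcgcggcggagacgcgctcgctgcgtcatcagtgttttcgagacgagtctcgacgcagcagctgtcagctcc
PRPF19 chr11:60906586-60906735 (- strand): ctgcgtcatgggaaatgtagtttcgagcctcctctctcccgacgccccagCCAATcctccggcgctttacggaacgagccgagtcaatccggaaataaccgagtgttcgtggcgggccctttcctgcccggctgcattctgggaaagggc

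The 5 upstream stretches did not look alike. LUC7L3 held 3 GC boxes in 150 bases of 78.0% G + C and CLK1 held 2 in 72.0%, while PNISR, with 45.3% G + C, held an ETS motif 26 bases before its start and no GC box. CLK3 and PRPF19 each held a CCAAT box, 65 and 100 bases before the start. Over whole windows of 300 bases, 250 before and 50 after the start, 47 of the 52 members were matched, by symbol. GGGCGG lay on either strand in 33 of these 47 genes (70.2%) against 48.3% of all 27305 genes of the table. CCGGAAG lay in 13 (27.7%, against 12.2%), CCAAT in 20 (42.6%, against 39.7%) and the YY1 motif AAGATGGC in 4 (8.51%, against 3.52%), which were PNISR, PNN, RBM25 and SF3A1. A gene counted if any of its windows held the motif, and the 47 members had 67 windows, the 27305 genes 35116. Outside the 150 bases shown, CLK3 thus also held GGGCGG and CCGGAAG, and LUC7L3 CCAAT. All 52 members passed the filter on low values, while the 27305 genes were not chosen by expression, so the 2 sets are unlike. The member windows had a median G + C content of 64.3%, above the 58.7% of all windows, and a motif match is a description of the letters only.

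METTL1 itself was lower in all 3 shMETTL1 libraries. Its FPKM was 13.9, 18.5 and 21.0 in shscramble replicates 1, 2 and 3 and 8.35, 10.5 and 8.18 in shMETTL1 replicates 1, 2 and 3, so the groups did not overlap. The exact two-sided permutation test of the means gave p = 0.1, the smallest that 3 libraries against 3 allow. On log2(FPKM + 0.5) the difference was -0.93 ± 0.22 (SE), with an adjusted p of 0.127 by limma. By edgeR METTL1 fell (log2 fold change -1.36, adjusted p = 0.0368, from 0.00476 to 0.187 over the alternatives), and it passed no longer without shscramble replicate 3 (0.187), shMETTL1 replicate 1 (0.142) or shMETTL1 replicate 3 (0.109). In bulk RNA such as this, less of a transcript per cell and fewer cells that carry it cannot be told apart.

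The libraries summed to 3389897 to 3604835 estimated counts, with 13196 to 13655 genes above 0 FPKM and 11.2% to 13.1% of counts on mitochondrially encoded genes. All 10 LNCaP lineage markers were expressed. KLK3, which encodes prostate-specific antigen, had 1171 to 1224 FPKM in shscramble and 743 to 878 in shMETTL1. By edgeR 3 of the 10 were lower in shMETTL1 (3.65% of all genes were) and 0 higher (2.68%). The 3 were KLK3, KLK2 and TMPRSS2 (adjusted p = 0.00319, 1.93e-05 and 0.0305). Limma called KLK2 only (adjusted p = 0.0356), where 0.123% of all genes were called. On FPKM 6 of the 10 had positive and 4 negative log2 differences. Of the 15 markers of other cell types found, 7 were at 0 in every library (DCN, LUM, PDGFRA, PTPRC, CDH5, KRT5 and CHGA) and 12 averaged under 0.5 FPKM. The summed FPKM of these 15 was 26.9 to 28.3 in shscramble and 14.4 to 17.8 in shMETTL1, mostly from COL1A1 and CD68, and its part in the results was not tested.

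None of the 52 members passed the test on FPKM (limma, adjusted p under 0.05), a test that 15 of all 12156 genes passed (0.123%). At an unadjusted p under 0.05 by limma, 4 members had a higher level in shMETTL1 (7.69% of the 52, against 7.37% of all genes) and 6 a lower one (11.5%, against 6.80%). The 4 were SRSF2, PRPF3, PRPF8 and PRPF19, and the 6 were LUC7L3, PNN, PNISR, SRPK2, HNRNPA1 and HNRNPH3. By edgeR on the estimated counts 3 members fell (5.77%, against 3.65% of the 11248 genes tested) and 2 rose (3.85%, against 2.68%). The FPKM of the groups did not overlap for 5 members that were higher (9.62%, against 10.5% of all genes) and 5 that were lower (9.62%, against 9.33%). At an unadjusted p under 0.05 by edgeR 12 members were lower, beside 1363 of the 11248 genes, and 3 higher, beside 1206. The shares without overlap and that of the higher members by limma lie near those of all genes. The lower members at an unadjusted p were a larger share than among all genes by limma and by edgeR. The shares called by edgeR rest on 3 and 2 members. The fitted log2 fold changes of the 52 ran from -0.89 to 0.52 with a median of -0.09, beside 0.02 for all genes tested, and 33 of the 52 (63.5%) were negative, against 47.5% of all genes.

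**Figure D1:**
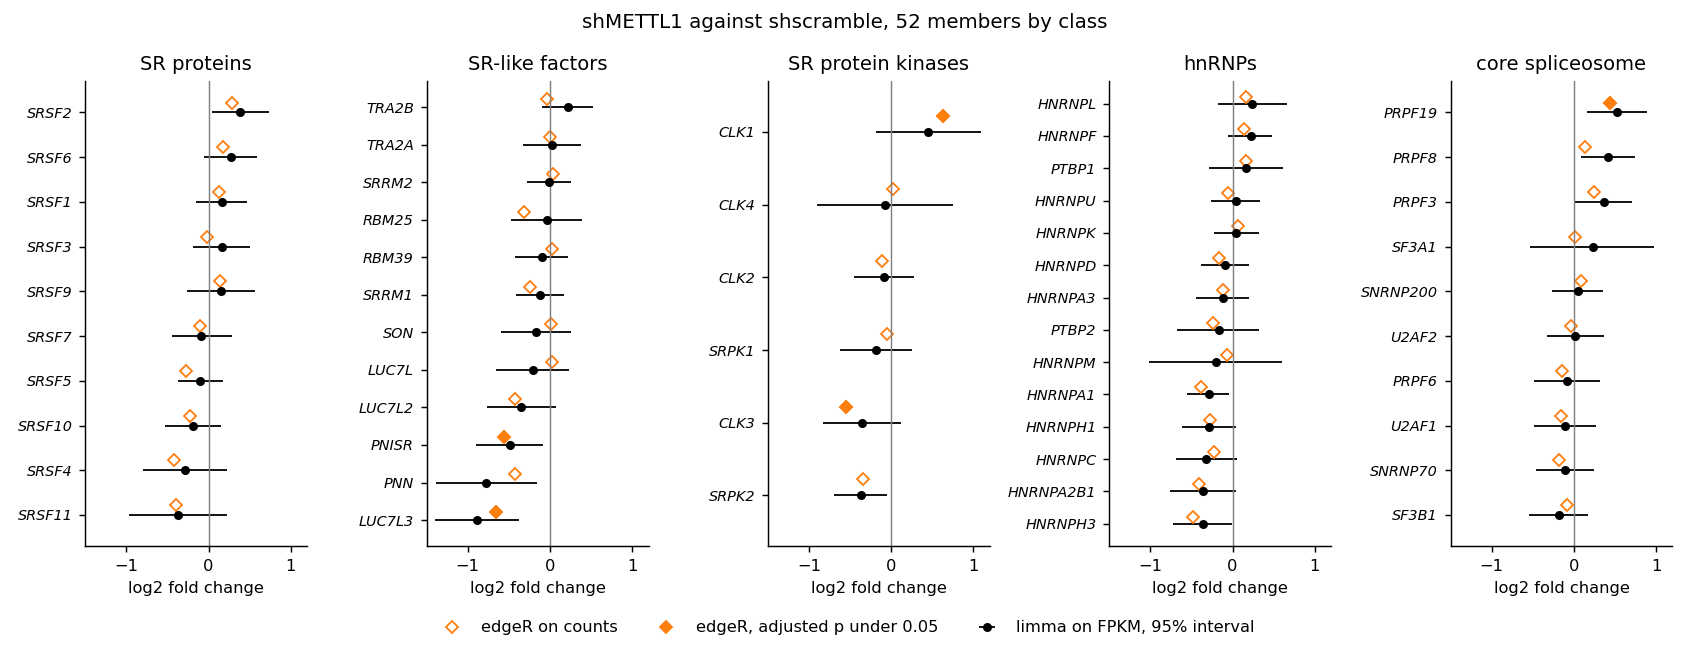
Log2 fold change of each of the 52 members (shMETTL1 against shscramble, x axis) in its class. Black points and bars are the limma estimates on log2(FPKM + 0.5) with 95% confidence intervals, and diamonds are the edgeR estimates on estimated counts, filled at an adjusted p under 0.05. The 5 filled diamonds are LUC7L3, PNISR, CLK1, CLK3 and PRPF19, the intervals of LUC7L3, PNN, PNISR, SRPK2, HNRNPA1 and HNRNPH3 lie wholly below 0, and those of SRSF2, PRPF3, PRPF8 and PRPF19 wholly above it.

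The SR-like factors held the members with the lowest fold changes. Of the 12, 10 had a negative log2 fold change on FPKM, and the median was -0.14. At an unadjusted p under 0.05 by limma 3 were lower (6.80% of all genes were) and none was higher (7.37%). By edgeR 2 fell (3.65% of all genes did). By edgeR on the counts 7 were negative and 5 positive, with the same median. The lowest on FPKM were LUC7L3 (-0.89), PNN (-0.78), PNISR (-0.49) and LUC7L2 (-0.35), and the Tra2 proteins TRA2A and TRA2B lay at 0.02 and 0.22.

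LUC7L3 (ENSG00000108848), a relative of a yeast U1 subunit that helps to choose 5′ splice sites, was lower in all shMETTL1 libraries. Its FPKM was 158, 79.1 and 114 in shscramble replicates 1, 2 and 3 and 61.1, 56.5 and 64.6 in shMETTL1 replicates 1, 2 and 3. The shMETTL1 mean was thus 51.9% of that of shscramble, and the shscramble libraries were spread widely (117 ± 39.3, SD, n = 3) while the shMETTL1 libraries were close together (60.8 ± 4.06). On FPKM the difference was -0.89 ± 0.23 (log2, SE; 95% interval -1.40 to -0.37) with an adjusted p of 0.156 by limma. By edgeR the estimated counts, 836 ± 215 against 552 ± 19.7, fell by 0.66 on the log2 scale (adjusted p = 0.0299, from 4.33e-05 to 0.132 over the alternatives). The call was lost when any library but shscramble replicate 2 was left out (adjusted p of 0.0898 to 0.132). Without shscramble replicate 2, the lowest shscramble library for this gene, limma called it too (-1.14, adjusted p = 0.0313, the lowest of its limma alternatives, which ran up to 0.374).

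PNISR (ENSG00000132424), a speckle protein that interacts with pinin, had 62.2, 43.7 and 64.5 FPKM in shscramble replicates 1, 2 and 3 and 42.9, 38.9 and 37.5 in shMETTL1 replicates 1, 2 and 3. The groups did not overlap, by a margin of less than 1 FPKM between shscramble replicate 2 and shMETTL1 replicate 1. The shMETTL1 mean was 70.0% of the control, and the log2 difference was -0.49 ± 0.18 with an adjusted p of 0.282 by limma. By edgeR PNISR fell (log2 fold change -0.56, adjusted p = 0.0314, from 0.00011 to 0.142 over the alternatives), and the call was lost without any single library other than shscramble replicate 2 (0.101 to 0.142).

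PNN, which encodes pinin, a protein of the exon junction complex and of desmosomes, had 204, 114 and 157 FPKM in shscramble and 74.1, 73.0 and 133 in shMETTL1 (replicates 1, 2 and 3). shMETTL1 replicate 3 lay above shscramble replicate 2, so the groups overlapped. The log2 difference was -0.78 ± 0.27, with an adjusted p of 0.261 by limma and of 0.127 by edgeR. LUC7L2, another Luc7 relative, had 132, 86.6 and 109 FPKM in shscramble and 74.4, 79.9 and 100.3 in shMETTL1, a log2 difference of -0.35 ± 0.19 (adjusted p = 0.425 by limma and 0.0849 by edgeR). LUC7L, the least abundant of the class, had 24.5, 20.8 and 26.1 FPKM against 18.8, 17.4 and 25.8, with a log2 difference of -0.21 ± 0.20 on FPKM and of 0.02 on counts. The 3 Luc7 relatives therefore differed from one another on the count scale, from -0.66 for LUC7L3 to 0.02 for LUC7L, without a test of that difference.

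The other SR-like factors showed small differences on FPKM. SRRM2, a large speckle scaffold and the most abundant of the class, had 285, 302 and 328 FPKM in shscramble and 296, 296 and 315 in shMETTL1, a log2 difference of -0.01 (95% interval -0.28 to 0.26). TRA2B, which activates exons with GAA repeats, averaged 107 and 124 FPKM, and its paralog TRA2A averaged 59.3 and 60.7. RBM25, which associates with the U1 particle, averaged 99.7 and 95.1 FPKM, RBM39 183 and 169.6, SRRM1 104 and 95.8, and the speckle scaffold SON 148 and 129. None of these 7 passed either test, and their adjusted p-values were 0.495 or above by limma. On counts the log2 fold change by edgeR was -0.32 for RBM25, -0.24 for SRRM1 and -0.04 for TRA2B. For the others it lay between 0.00 and 0.04, and all 7 had an adjusted p of 0.243 or above by edgeR.

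**Figure D2:**
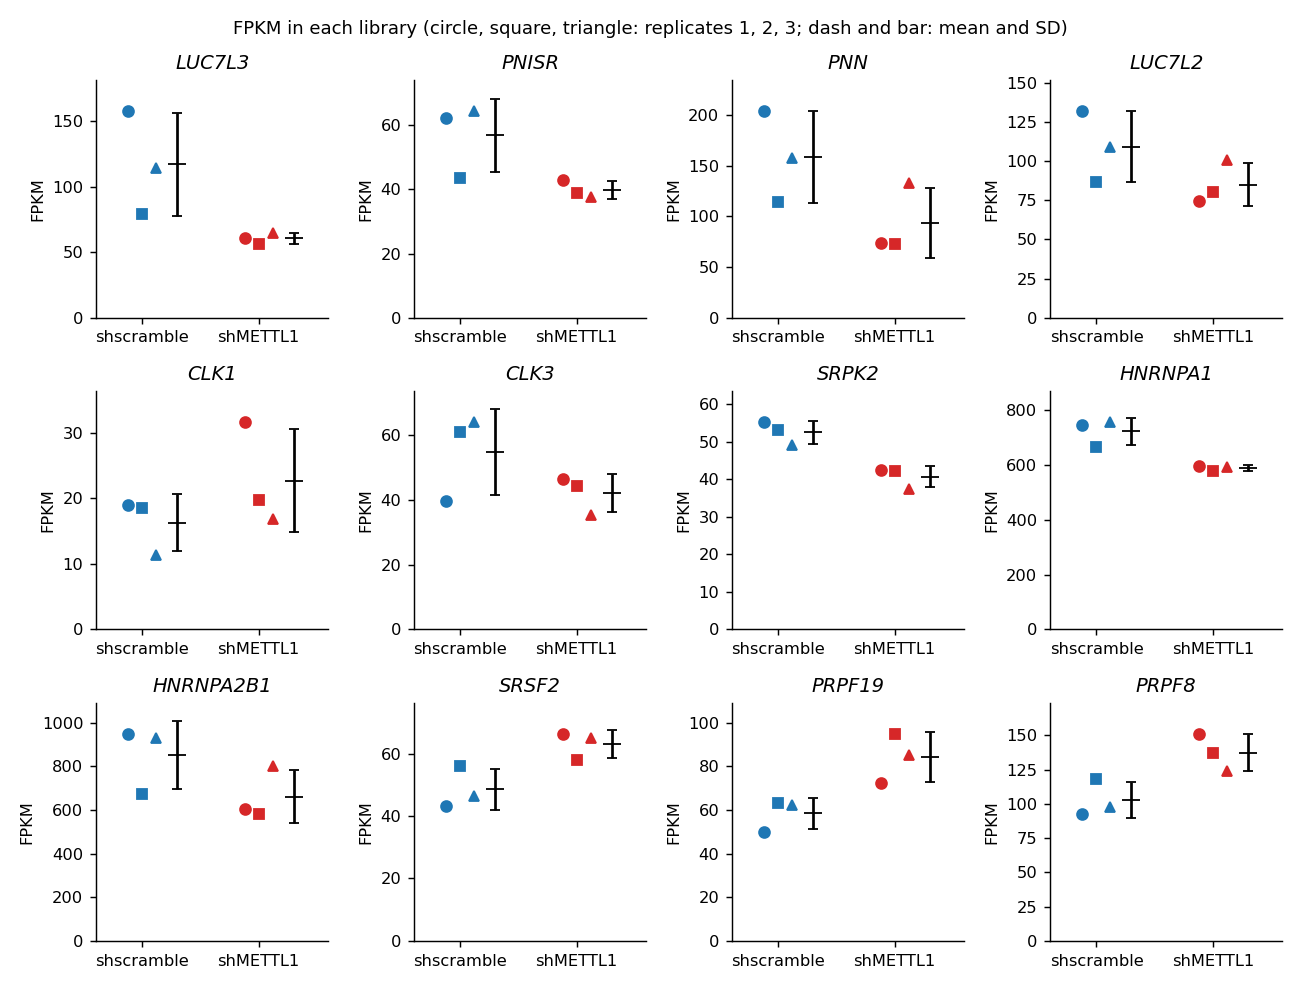
FPKM (y axis, from 0) of 12 members in each library of shscramble (blue) and shMETTL1 (red), with the mean and SD of 3 libraries. LUC7L3 lies between 79.1 and 158 in shscramble and between 56.5 and 64.6 in shMETTL1. PRPF19 lies between 50.1 and 63.1 and between 72.2 and 94.9, while CLK1 and CLK3 overlap on this scale.

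The SR protein kinases moved in both directions. Of the 6, 1 fell and 1 rose by edgeR (3.65% and 2.68% of all genes did), and none passed by limma. The median log2 difference of the class was -0.13 on FPKM, with 5 of 6 negative, but -0.28 without shscramble replicate 1, -0.08 by edgeR and -0.07 by DESeq2 and by limma on log2 CPM. CLK1 and CLK3, both Cdc2-like kinases that release SR proteins from speckles, went opposite ways, and CLK2 and CLK4 lay near 0. The cytoplasmic kinases SRPK1 and SRPK2 both had lower means on FPKM, but on counts only SRPK2 did.

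CLK1 (ENSG00000013441) had 19.0, 18.6 and 11.3 FPKM in shscramble replicates 1, 2 and 3 and 31.6, 19.7 and 16.8 in shMETTL1 replicates 1, 2 and 3, so the groups overlapped. Its estimated counts did not, with 88.8, 110.3 and 99.6 against 185, 162 and 133. By edgeR CLK1 rose (log2 fold change 0.63, adjusted p = 0.0358, from 0.0147 to 0.158 over the alternatives). On FPKM the difference was 0.45 ± 0.28 with an adjusted p of 0.495 by limma. The edgeR call was lost without shscramble replicate 1 (0.0908) or 3 (0.117) and without shMETTL1 replicate 1 (0.158) or 2 (0.122).

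CLK3 (ENSG00000179335) had 39.6, 60.8 and 63.9 FPKM in shscramble replicates 1, 2 and 3 and 46.4, 44.4 and 35.4 in shMETTL1 replicates 1, 2 and 3, and its groups overlapped through shscramble replicate 1. The estimated counts were 265, 312 and 378 against 214, 236 and 226, without overlap. By edgeR CLK3 fell (log2 fold change -0.55, adjusted p = 0.0291, from 0.00677 to 0.182 over the alternatives), and on FPKM the difference was -0.35 ± 0.21 (adjusted p = 0.475 by limma). The edgeR call was lost without shscramble replicate 3 (0.182) and without shMETTL1 replicates 1, 2 or 3 (0.121, 0.0959 and 0.0898).

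SRPK2, which loads SR proteins for import into the nucleus, separated the groups with little spread. Its FPKM was 55.2, 53.2 and 49.2 in shscramble and 42.4, 42.2 and 37.4 in shMETTL1, 77.4% of the control mean. The log2 difference was -0.37 ± 0.14, with an adjusted p of 0.306 by limma and 0.0971 by edgeR. SRPK1, the most abundant kinase of the class, had 54.7, 62.3 and 61.0 FPKM against 47.8, 42.7 and 69.5, a difference of -0.18 ± 0.19 (adjusted p = 0.699 by limma). Its mean estimated count was 408 in shscramble and 409 in shMETTL1 (log2 fold change -0.05, adjusted p = 0.849 by edgeR). CLK4 was the least abundant of all members, with 3.15, 4.87 and 6.65 FPKM against 5.30, 6.07 and 2.65, and its difference of -0.07 ± 0.37 turned positive on the counts (0.02). CLK2 averaged 28.0 and 26.3 FPKM.

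Among the 10 SR proteins none passed by limma or edgeR. On FPKM 5 had positive and 5 negative differences with a median of 0.03, and on counts by edgeR 4 and 6 with a median of -0.06. At an unadjusted p under 0.05, limma gave 1 higher (7.37% of all genes were) and 0 lower (6.80%). By edgeR 1 was higher, SRSF2, beside 1206 of all 11248 genes. The 2 lower by edgeR were SRSF4 and SRSF11, beside 1363 of all genes. SRSF2, which binds exonic enhancers, was the only one at an unadjusted p under 0.05 by limma. It had 43.1, 55.9 and 46.5 FPKM in shscramble and 66.3, 57.9 and 65.1 in shMETTL1, 130.1% of the control, and the groups did not overlap. The log2 difference was 0.38 ± 0.15 (adjusted p = 0.322 by limma and 0.154 by edgeR). SRSF6 had 67.2, 83.4 and 71.6 FPKM against 91.3, 94.6 and 81.6, a difference of 0.27 ± 0.14 (adjusted p = 0.424 by limma). SRSF1 had a mean of 116 FPKM in shscramble and 129 in shMETTL1, and SRSF3 of 67.4 and 75.3.

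SRSF11, the most abundant SR protein transcript, went the other way with a wide spread. Its FPKM was 342, 148 and 208 in shscramble and 161, 154 and 196 in shMETTL1, so that shscramble replicate 2 lay below every shMETTL1 library. The difference was -0.37 ± 0.27 (adjusted p = 0.551 by limma). SRSF10, an SR protein that can repress splicing when dephosphorylated, had 67.8, 59.0 and 78.8 FPKM against 61.5, 60.5 and 56.4 (-0.19 ± 0.15, adjusted p = 0.589 by limma). SRSF7, the least abundant, had 36.4, 50.0 and 45.0 against 42.0, 39.7 and 41.1 (-0.09 ± 0.16). SRSF4 averaged 114 and 90.6 FPKM, with overlap between the groups. Its log2 difference was -0.29 on FPKM (adjusted p = 0.595 by limma) and -0.42 on counts (adjusted p = 0.114 by edgeR). SRSF5 averaged 157 and 147 FPKM, and SRSF9 94.8 and 104.

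The hnRNPs were the most abundant class, with a median of 217 FPKM over its members, and 9 of 14 had lower means in shMETTL1. The median difference was -0.15. None passed the test by limma on FPKM or by edgeR. At an unadjusted p under 0.05 limma gave 2 lower (6.80% of all genes were) and 0 higher (7.37%). By edgeR 4 were lower, beside 1363 of all 11248 genes, and 0 higher, beside 1206. HNRNPA1, a repressor of exon inclusion through exonic and intronic silencers, had 746, 666 and 755 FPKM in shscramble and 597, 578 and 592 in shMETTL1. The groups did not overlap, the shMETTL1 mean was 81.5% of the control, and the difference was -0.29 ± 0.11 (adjusted p = 0.308 by limma and 0.0607 by edgeR). HNRNPA1 has many processed copies in the genome, and reads shared with them may be assigned to either. HNRNPH3, of the family that binds runs of G, had 262, 189.6 and 211 FPKM against 149, 179 and 184, without overlap (-0.36 ± 0.16, adjusted p = 0.349 by limma and 0.0731 by edgeR).

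HNRNPA2B1, the most abundant member of all 52, had 948, 671 and 931 FPKM in shscramble and 603, 579.7 and 801 in shMETTL1. shMETTL1 replicate 3 lay above shscramble replicate 2, and the difference was -0.36 ± 0.18 (adjusted p = 0.395 by limma and 0.102 by edgeR). HNRNPH1 had 554, 458 and 626 FPKM against 405, 447 and 482 (-0.29 ± 0.15, adjusted p = 0.405 by limma). With limma on log2 CPM HNRNPA1 fell (-0.36, adjusted p = 0.033), and with DESeq2 on the same counts HNRNPA1 (adjusted p = 0.0109), HNRNPH3 (0.0431) and HNRNPA2B1 (0.0476) fell. Over all alternatives on the counts their adjusted p ran from 0.00121 to 0.255, from 0.000459 to 0.271 and from 0.000664 to 0.351. PTBP2, the neuronal form of the polypyrimidine tract protein and the least abundant of the class, had 26.1, 29.5 and 19.8 FPKM against 18.0, 28.2 and 20.7 (-0.17 ± 0.22), while its widely expressed paralog PTBP1 averaged 134 and 148.

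The remaining hnRNPs differed by little or with wide intervals. HNRNPF was higher in all 3 shMETTL1 libraries (182 ± 5.92 against 211 ± 7.08 FPKM, SD, n = 3) and did not pass (adjusted p = 0.434 by limma). HNRNPC averaged 498 and 394 FPKM, HNRNPD 436 and 410.2, HNRNPA3 199 and 182, HNRNPK 359 and 369, HNRNPU 235 and 241, and HNRNPL 136 and 157. HNRNPM ranged from 77.4 to 193 FPKM within shscramble alone, and the 95% interval of its difference ran from -1.01 to 0.60. By limma none of these had an adjusted p under 0.413.

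The core spliceosome subunits with the smallest p were higher in shMETTL1. PRPF19 (ENSG00000110107), the ubiquitin ligase of the Prp19 complex that stabilises the catalytic spliceosome, had 50.1, 63.1 and 62.2 FPKM in shscramble replicates 1, 2 and 3 and 72.2, 94.9 and 85.4 in shMETTL1 replicates 1, 2 and 3. The groups did not overlap, and the shMETTL1 mean was 144% of the control. The log2 difference was 0.52 ± 0.16 (95% interval 0.16 to 0.89) with an adjusted p of 0.215 by limma. By edgeR PRPF19 rose (log2 fold change 0.44, adjusted p = 0.0368, from 0.0154 to 0.188 over the alternatives), and the call was lost without any single library other than shscramble replicate 2 (0.0604 to 0.188).

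PRPF8, the scaffold of the U5 particle that holds the catalytic RNA, was the most abundant of the 10 and had 92.9, 118 and 97.6 FPKM against 151, 137 and 124. The groups did not overlap on FPKM, and the difference was 0.42 ± 0.15 (adjusted p = 0.261 by limma). On counts it was 0.14 (adjusted p = 0.438 by edgeR). PRPF3, of the U4/U6 particle, had 32.4, 27.4 and 33.2 FPKM against 36.8, 41.4 and 41.9 without overlap (0.37 ± 0.15, adjusted p = 0.339 by limma). SF3B1, the U2 subunit that holds the branch point, had 97.8, 120.0 and 114 against 115, 85.2 and 93.7 (-0.18 ± 0.16, adjusted p = 0.625 by limma), and PRPF6, the least abundant, had 35.2, 26.8 and 29.8 against 24.5, 29.7 and 32.4 (-0.08 ± 0.18). SNRNP200, a helicase of U5, averaged 41.4 and 42.7 FPKM, SNRNP70 of U1 66.9 and 62.5, U2AF1 62.2 and 57.5, U2AF2 95.4 and 96.9, and SF3A1 72.7 and 83.7. The median of the class was 0.03 on FPKM and -0.01 on counts by edgeR.

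A single control library weighed on these counts. shscramble replicate 2 had the lowest FPKM of the 3 shscramble libraries for 26 of the 52 members (50.0%), against 28.1% of all genes tested. The share was 10 of 14 among hnRNPs and 8 of 12 among SR-like factors, against 4 of 10 SR proteins, 4 of 10 core subunits and 0 of 6 kinases. The level of a class in a library was taken as the median over its genes of log2(FPKM + 0.5), after the mean of each gene over the 6 libraries was taken off. For SR-like factors shscramble replicate 2 stood at -0.05, below shscramble replicates 1 and 3 (0.19 and 0.15) and within the range of shMETTL1 (-0.10 to 0.05). For hnRNPs it stood at -0.10, below 0.17 and 0.12 and within the shMETTL1 range of -0.12 to 0.01.

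**Figure D3:**
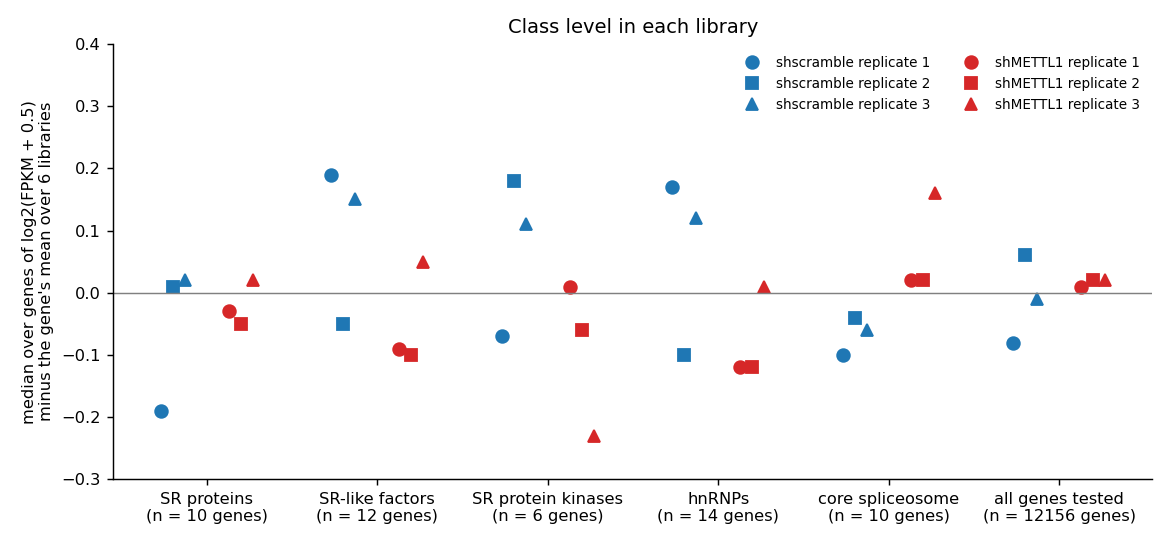
Median over the genes of each class of log2(FPKM + 0.5) minus the mean of the gene over 6 libraries (y axis), per library (3 shscramble in blue, 3 shMETTL1 in red, marker shape by replicate number). For SR-like factors and hnRNPs shscramble replicates 1 and 3 lie at 0.12 to 0.19 and shscramble replicate 2 at -0.05 and -0.10, while the medians of all 12156 genes tested lie between -0.08 and 0.06.

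Without shscramble replicate 2 the number of members that fell by edgeR went from 3 to 16 (30.8% of 52, against 9.81% of the 11371 genes then tested), and the number that rose from 2 to 4 (7.69%, against 7.68%). The 16 were SRSF4, SRSF5, SRSF11, LUC7L2, LUC7L3, PNN, PNISR, RBM25, CLK3, SRPK2, HNRNPA1, HNRNPA2B1, HNRNPC, HNRNPD, HNRNPH1 and HNRNPH3. Among them were SRSF11 (log2 fold change -0.61, adjusted p = 0.00157) and RBM25 (-0.53, adjusted p = 0.0011), for which the alternatives ran up to 0.699 and 0.722. With all libraries edgeR gave -0.40 for SRSF11 and -0.32 for RBM25. By limma on FPKM SRSF11 was at -0.65 without shscramble replicate 2 and at -0.05 without shscramble replicate 1. The 4 were SRSF2, CLK1, PTBP1 and PRPF19. By limma without that library 1 member, LUC7L3, was called, where 1.56% of all genes were. Leaving out any other library took the edgeR calls among members to 0 or 1. Which of the 3 shscramble libraries represents the control best cannot be told from these tables.

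The ratio of estimated count to FPKM was compared between the groups as well. FPKM is divided by transcript length and the count is not, so this ratio depends on the lengths of the isoforms to which reads were assigned. It was tested with limma after the values had been seen. At an unadjusted p under 0.05, 4 members differed (7.69%, near the 5.93% of all 10491 genes), and none of all genes passed an adjusted p of 0.05. The ratio was higher in shMETTL1 for LUC7L3 (log2 difference 0.29) and lower for RBM25 (-0.22), TRA2B (-0.23) and PRPF8 (-0.26), each with an adjusted p of 0.763 or above. For LUC7L3 the library values were -0.37, -0.18 and -0.23 in shscramble and -0.04, 0.13 and 0.01 in shMETTL1 (log2 of count per FPKM, with the library median taken off), without overlap. PRPF8 gave 1.78, 1.67 and 1.74 against 1.33, 1.43 and 1.65, also without overlap, and RBM25 gave 0.69, 0.63 and 0.56 against 0.44, 0.41 and 0.37. Whether isoforms changed cannot be read from tables with 1 value per gene.

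**Figure D4:**
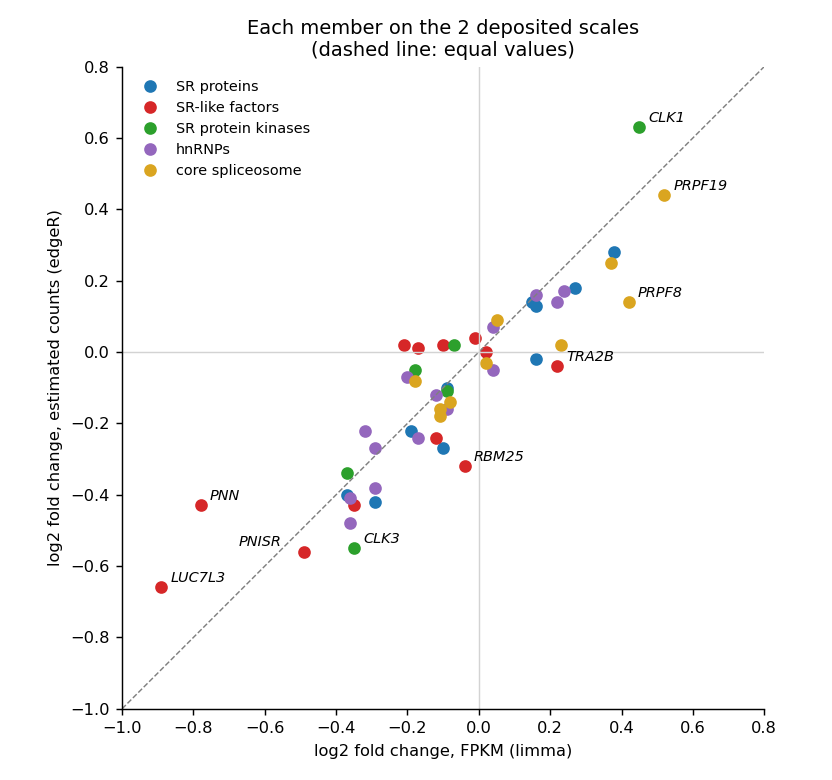
Log2 fold change of each of the 52 members on FPKM (x axis, limma) and on estimated counts (y axis, edgeR), coloured by class, with the line of equal values. LUC7L3 (-0.89 and -0.66) and PNN (-0.78 and -0.43) lie above the line, and RBM25 (-0.04 and -0.32), TRA2B (0.22 and -0.04) and PRPF8 (0.42 and 0.14) below it.

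Beyond the members, 139 other splicing genes in 7 lists were tested, with a median log2 difference of -0.07. None passed by limma, and by edgeR 4 fell and 1 rose, beside the 3.65% and 2.68% of all genes. At an unadjusted p under 0.05 by limma 17 were lower (6.80% of all genes were) and 3 higher (7.37%). By edgeR 35 were lower at that threshold, beside 1363 of all 11248 genes, and 6 higher, beside 1206. The list of other SR-like and RS-domain factors had the lowest median, -0.29, with 14 of its 19 tested genes negative. At an unadjusted p under 0.05 by limma 6 of them were lower (6.80% of all genes were), and 2 fell by edgeR (3.65% of all genes did). RSRC1 averaged 130.3 ± 32.5 FPKM among the shscramble libraries and 82.9 ± 23.8 among those of shMETTL1 (SD, n = 3) and fell by edgeR (log2 fold change -0.66, adjusted p = 0.0327), as did PPIG, a cyclophilin with an RS domain (98.8 ± 32.1 and 58.3 ± 16.0 FPKM, -0.88, adjusted p = 0.018). ARGLU1 averaged 82.9 ± 10.4 and 55.8 ± 11.9 FPKM and RSRC2 98.7 ± 18.4 and 68.8 ± 7.36, both without overlap (adjusted p = 0.227 and 0.251, limma).

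Among regulators tied to tissues, NOVA1, an RNA-binding protein known from neurons, fell by edgeR (17.6 ± 3.87 and 11.1 ± 0.901 FPKM, log2 fold change -0.93, adjusted p = 0.0128), and ESRP1, which sets epithelial splicing, rose (24.5 ± 2.97 and 33.2 ± 3.48 FPKM, 0.46, adjusted p = 0.0452). MBNL1 averaged 97.3 ± 6.27 and 76.1 ± 7.82 FPKM (adjusted p = 0.309 by limma). In the minor spliceosome ZCRB1 fell by edgeR (60.7 ± 5.97 and 45.3 ± 1.63 FPKM, -0.56, adjusted p = 0.0344), while SNRNP35 (32.9 and 26.9 FPKM) and SNRNP25 (17.9 and 15.6) did not pass. Each of these edgeR calls was lost when some single library was left out. Over all alternatives on the counts the adjusted p ran up to 0.0688 for NOVA1, 0.2 for ESRP1, 0.164 for ZCRB1, 0.151 for RSRC1 and, by DESeq2, 0.116 for PPIG.

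The other lists held no call by limma or edgeR. At an unadjusted p under 0.05 by limma, 2 of the related RNA-binding proteins, 3 of the Sm, U1 and U2 proteins, 2 of the U5, U4/U6, Prp19 and helicase genes and 1 of the decay factors were lower (6.80% of all genes were). Among the related RNA-binding proteins 1 was higher, among the U5, U4/U6, Prp19 and helicase genes 1, and in the remaining lists of these 0 (7.37% of all genes were higher). By DESeq2 SNRPF and SF3B2 fell. The related RNA-binding proteins RALY (50.9 ± 1.95 and 37.8 ± 2.58 FPKM) and HNRNPA0 (19.8 ± 3.60 and 26.4 ± 1.43) did not overlap between groups (adjusted p = 0.24 and 0.347, limma), and SFPQ of the paraspeckles averaged 397 ± 128 and 247 ± 39.0. The Sm proteins SNRPF (74.2 ± 20.2 and 44.7 ± 12.9 FPKM) and SNRPD1 (100.1 ± 36.1 and 59.8 ± 16.3) overlapped between groups, and SF3B3 averaged 223 ± 21.7 and 177 ± 27.3. LSM8, of the ring on U6, averaged 52.1 ± 23.5 and 22.1 ± 4.90 FPKM (adjusted p = 0.151, limma), LSM4 106 ± 3.39 and 85.7 ± 5.85, and BCAS2 of the Prp19 complex 23.2 ± 4.78 and 32.7 ± 2.63. UPF2, of nonsense-mediated decay, averaged 38.3 ± 5.39 and 22.2 ± 1.69 FPKM (adjusted p = 0.109 by limma), and SMG8 11.5 ± 3.34 and 8.70 ± 1.17. Without shscramble replicate 2 limma called 2 of the 139 (1.56% of all genes were called). They were SFPQ (-0.94, adjusted p = 0.032) and UPF2 (-0.88, adjusted p = 0.0463), whose other limma alternatives ran up to 0.576 and 0.336. In the same setting edgeR called 39 as lower (9.81% of all genes were) and 4 as higher (7.68%). For 48.9% of the 139 shscramble replicate 2 was the lowest shscramble library, against 28.1% of all genes tested.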

How the data were processed

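Gene tables were used for 6 RNA-seq libraries of LNCaP-AI cells, 3 shMETTL1 and 3 shscramble, grouped by their titles. The authors deposited per gene an FPKM value and an estimated count, mostly fractional, and per the labels the submitters' notes list build hg19, Cufflinks, Cuffdiff, HISAT2 2.0.4 and cutadapt 1.9.3. Whole numbers (within 0.001) made up 1.8% to 2.51% of the estimated counts deposited, whose near-equal totals do not give the depth, so no counting interval was computed. FPKM depends on how reads were split among isoforms. Whether the estimated count of a gene also does was not checked.

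FPKM was tested with limma 3.58.1 (R 4.3.3; trend, robust) on log2(FPKM + 0.5) for genes with a mean of at least 0.5 FPKM, which understates changes of low genes. Estimated counts were rounded and tested with edgeR 4.0.16 (TMM, filterByExpr, quasi-likelihood) as a second rule, and with DESeq2 1.42.0. Tests were two-sided, and p-values were adjusted by Benjamini-Hochberg over all genes tested, with calls under 0.05. The log2 ratio of count to FPKM (mean count of at least 20) was tested with limma, a choice made after seeing the data.

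The members and lists were chosen with earlier results of these data known. Values in each library were given for every member called, for the 4 members of each class with the smallest limma p and for the most and least abundant of each class. In the other splicing lists up to 3 genes with the smallest limma p were named, and PPIG (called by edgeR) and SF3B2 (by DESeq2) were added after their values were seen. Some genes are not reported here. The functions given for genes are textbook knowledge. The libraries of a group were not duplicates of one another. TAF15 and RBM8A were not matched by symbol and were not analysed here. Promoter windows came from RefSeq (GRCh38.p14), and no coordinate of the deposited build was used.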

Additional observations from a re-analysis of the deposited data

How the results depend on the processing

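No member was called by limma on FPKM under any alternative but the one without shscramble replicate 2. Over the libraries left out one at a time, limma called 0 to 1 members, 0 to 2 genes of the other splicing lists and 3 to 189 of all genes, and edgeR called 0 to 20, 0 to 43 and 270 to 1989. Without a filter on low values limma called 4 genes in place of 15, and edgeR without a filter on low counts called 1094 in place of 712, with 11 members and 16 of the other splicing genes. DESeq2 called 704 of all genes, with 8 members and 8 of the others. Limma on log2 CPM called LUC7L3, PNISR, CLK1, CLK3, PRPF19 and HNRNPA1, and its number of calls over all genes is not given here. Over all genes tested, same-numbered libraries did not deviate together (correlations of 0, 0.05 and -0.02). With 3 libraries in a group this does not settle whether the numbers pair them. With the replicate block limma called 6 genes and no member. In that setting edgeR called 1015 genes in place of 712, with 8 members (adding LUC7L2, PNN and HNRNPH3) and 15 of the other splicing genes. The cause of these differences was not tested.

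METTL1 was called on the counts by limma on log2 CPM (-1.35), edgeR (-1.36) and DESeq2 (-1.37). Over the libraries left out its edgeR log2 fold change ran from -1.72 to -1.05. The class medians moved by less than the SD between libraries, with hnRNPs between -0.20 and -0.04 and SR-like factors between -0.24 and -0.11 and kinases between -0.28 and -0.07. The medians of SR proteins (-0.06 to 0.09) and of core subunits (-0.07 to 0.08) lay on both sides of 0. Signs also turned for members near 0. SRRM2 gave 0.04 by quantile normalization and by edgeR, 0.05 by limma on log2 CPM and by DESeq2, and -0.06 to 0.04 with single libraries left out. LUC7L gave 0.02 by limma on log2 CPM and by edgeR and 0.03 by DESeq2. CLK4 gave 0.09 by limma on log2 CPM, 0.02 by edgeR, 0.03 by DESeq2 and -0.33 to 0.25 with single libraries left out. SRSF7 gave -0.21 to 0.01 and PRPF6 -0.17 to 0.03 with single libraries left out. Depth was not known, so counting error could not be set beside the spread between libraries.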
